A study of Mus musculus with 11 samples.

Results

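The Wnt pathway genes of mouse gonadal white adipose tissue (WAT) were examined by RNA sequencing in mice on a high fat diet (HFD) with and without iodomethylcholine (IMC). The genes were chosen by symbol. Every listed symbol of the Wnt, Frizzled (Fzd), Sfrp, Dkk, Dvl, Axin and Rspo families was taken. Named receptors, ligand processing factors, signal transducers and nuclear factors of the pathway were added. This gave 38 genes of the 12787 listed. Of the genes chosen by full name, Frzb, Lef1, Rnf43 and Tcf7 are not among the listed genes. The families are not complete in the list either. Counts, sums and shares of a family cover its listed members only. Gonadal WAT was taken from 11 C57Bl6/J male mice, 5 HFD control mice and 6 IMC-treated mice, with 1 library for each mouse. Both groups ate a 60% HFD for 20 weeks. The diet of the treated group contained 0.06% w/w IMC, an inhibitor of the gut bacterial enzyme that releases trimethylamine from choline, and the sample labels call the control treatment vehicle. The labels give neither an age for these mice nor a batch, and whole tissue was sequenced, so a level is an average over all cell types of the fat pad.

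Wnt proteins are secreted lipid-modified ligands that bind Frizzled receptors. Together with the coreceptors Lrp5 and Lrp6 they stop the destruction complex of Axin, Apc and Gsk3b from removing beta-catenin, which then acts with Tcf and Lef factors on target genes. Other Wnt ligands, with Wnt5a the best known, act through Ror and Ryk receptors without beta-catenin. In adipose tissue, beta-catenin signalling is known for restraining adipocyte differentiation, and secreted Sfrp proteins bind Wnt ligands outside the cell.

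Levels are log2 CPM, where CPM is the depth-scaled read count of a gene, and a difference of 1 on that scale is a doubling. Counted over the listed genes, depth ran from 22320022 to 25155366 reads per mouse, and 1 read was worth between 0.0403 and 0.0450 CPM. Groups were compared with limma over all listed genes, and a gene was called at a Benjamini-Hochberg adjusted p under 0.05. A positive log2 fold change means a higher level in IMC-treated mice. IMC mouse 2 and IMC mouse 6 often lay together at one end of the treated group. They had the 2 highest treated values for 13 of the 38 genes (34.2%), against 17.4% of all genes, and the 2 lowest for 5 of the 38 (13.2%), against 14.1% of all genes. Calls lost when both were left out, and called values that then moved by over 1.5 times, are given with the genes concerned.

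The labelled tissue was checked against marker lists. All 12 adipocyte markers were listed, and none of the 10 markers of epididymis and testis was listed. Markers of several cell types also moved between the groups. Of all genes, 20% were called higher and 21.0% lower. The summed level of the adipocyte markers was 10124 to 14464 CPM in HFD control mice and 19811 to 24316 CPM in IMC-treated mice, and 12 of 12 were called higher. The 11 listed macrophage markers of 12 (Marco not listed) summed to 11967 to 16204 CPM in controls and 6361 to 10226 CPM in treated mice, with 8 called lower and 0 higher. The 14 progenitor and fibroblast markers summed to 5807 to 6861 CPM against 4853 to 5629 CPM, with 8 called lower and 1 higher. None of these 3 sums overlapped between the groups. The 7 listed mural and smooth muscle markers of 8 (Cnn1 not listed) ran from 275 to 435 CPM in controls and from 452 to 629 CPM in treated mice, with 4 called higher. The 10 endothelial markers overlapped at 619 to 824 CPM and 695 to 963 CPM, with 2 (20%) called higher, the same share as of all genes. Of the 10 skeletal muscle markers 5 were listed, with sums of at most 29.1 CPM in controls against 42.2 to 71.7 CPM and 3 called higher, while Ckm, Myh1, Myh4, Tnnt3 and Mylpf were not listed. The part of these markers in the Wnt results was not tested, and in whole tissue fewer cells of a type and less RNA per cell cannot be told apart.

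Wnt pathway genes changed in both directions, with more rising than falling in IMC-treated mice. Of the 38 genes, 18 (47.4%) were called, beside 40.9% of all genes. Of these, 14 (36.8%) were higher, beside 20% of all genes, and 4 (10.5%) were lower, beside 21.0% of all genes. The median log2 fold change of the 38 genes was 0.14, and that of all genes was -0.03. For 10 of the 38 (26.3%) all treated mice lay on one side of all controls, as for 23.1% of all genes. The share called was near that of the whole table, and the calls were less evenly split by direction, a difference that was not tested. By role, the calls covered 8 of 12 receptors, 6 of 8 cytoplasmic genes and 2 of 6 secreted antagonists. They also covered 1 of 6 ligands and the 1 receptor turnover gene, Znrf3. No call fell on the 2 nuclear factors, the 2 ligand processing genes or the 1 agonist. The share over all genes was 40.9%, and differences between these small groups were not tested. Of the genes counted here, Sfrp1, Dvl1, Dvl3 and Fzd7 lost their call under other settings or with mice left out, as given below.

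**Figure D1:**
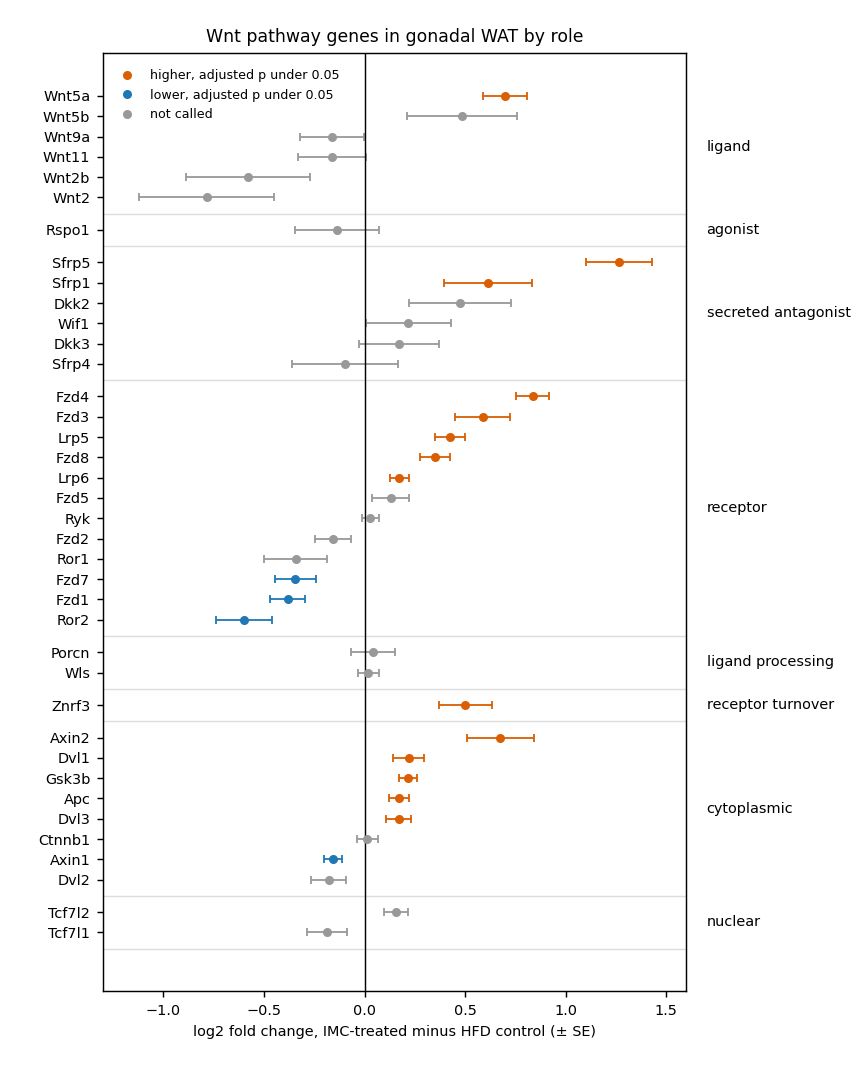
Log2 fold change (IMC-treated minus HFD control) with its standard error for each of the 38 Wnt pathway genes, ordered by role, with called genes in colour. Sfrp5 at 1.26 and Fzd4 at 0.84 lie farthest to the right among called genes, and Ror2 at -0.60 farthest to the left, while Wnt2 and Wnt2b have wide errors.

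Levels of different genes were compared per kb of exon, as log2 CPM per kb averaged over all mice. Ctnnb1, which encodes beta-catenin, had the highest level per length at 6.69 over all mice. It was followed by the antagonist Sfrp5 at 6.47 and the receptor Fzd4 at 4.67. The order of the first 2 differed between the groups, with Ctnnb1 at 6.68 and Sfrp5 at 5.78 in controls but Sfrp5 at 7.04 and Ctnnb1 at 6.70 in treated mice. Wls, Ryk and Rspo1 came next at 4.16, 4.08 and 3.998, levels that lie within the spread between mice of each other. The ligand with the highest level over all mice was Wnt2b at 2.33, which is rank 18 of the 38. Wnt2b stood above Wnt5a in controls (2.64 and 1.36), whereas in treated mice they were level (2.07 and 2.06). Dkk2 was lowest of the 38 at -1.90. Sfrp5 and Fzd4, the called genes with the largest changes, were thus among the 3 most abundant per length over all mice. That mean includes their rise in treated mice. In controls, Fzd4 at 4.21 (SD 0.21) lay within the spread between mice of Fzd1 at 4.16 and Wls at 4.15.

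**Figure D2:**
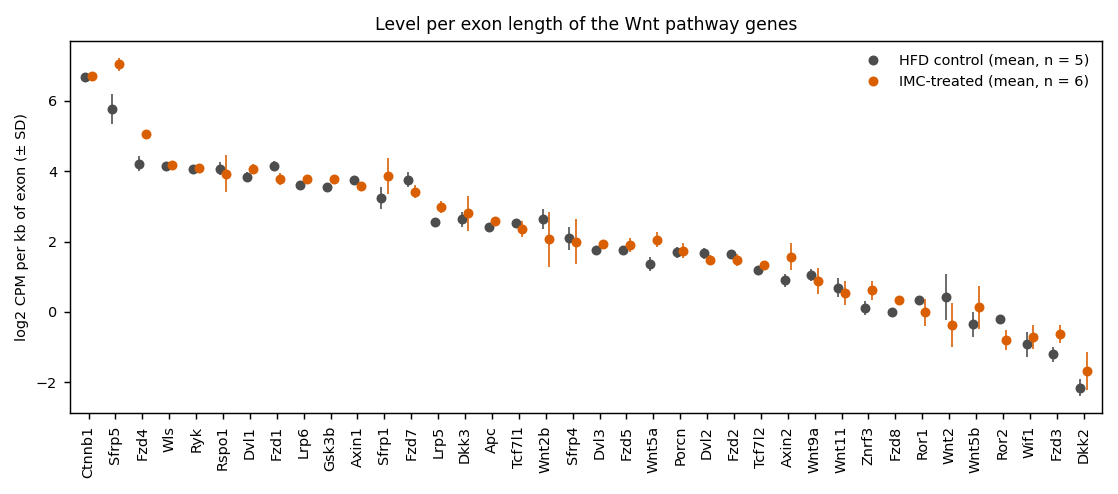
Level per exon length (log2 CPM per kb, mean ± SD) of the 38 Wnt pathway genes in 5 HFD control and 6 IMC-treated mice, ordered by the mean over all mice. Ctnnb1 is highest in controls at 6.68 and Sfrp5 in treated mice at 7.04, Dkk2 is lowest, and the groups stand clearly apart for Sfrp5 and Fzd4.

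Upstream sequences are shown for the 3 genes that stand for the rise of an antagonist, a receptor and a pathway feedback gene, and for the called gene with the largest fall. They are the 250 bases before a start site in RefSeq on GRCm38.p6, 5′ to 3′ on the strand of the gene. GC boxes (GGGCGG on either strand, overlaps counted) are in capitals. The windows are chr19:42202253-42202502 (minus strand) for Sfrp5, chr7:89404116-89404365 (plus strand) for Fzd4, chr11:108920099-108920348 (plus strand) for Axin2 and chr13:53286125-53286374 (minus strand) for Ror2. The RefSeq span of Axin2 begins earlier, at 108917828, so its window lies inside the gene, before a later start site. Sequence before the first Axin2 start is not shown.
Sfrp5: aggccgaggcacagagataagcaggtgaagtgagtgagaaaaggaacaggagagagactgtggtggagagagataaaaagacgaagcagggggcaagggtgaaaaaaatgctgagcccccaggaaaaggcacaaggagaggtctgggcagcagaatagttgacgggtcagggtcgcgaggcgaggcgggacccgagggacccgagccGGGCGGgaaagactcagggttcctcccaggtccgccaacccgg
Fzd4: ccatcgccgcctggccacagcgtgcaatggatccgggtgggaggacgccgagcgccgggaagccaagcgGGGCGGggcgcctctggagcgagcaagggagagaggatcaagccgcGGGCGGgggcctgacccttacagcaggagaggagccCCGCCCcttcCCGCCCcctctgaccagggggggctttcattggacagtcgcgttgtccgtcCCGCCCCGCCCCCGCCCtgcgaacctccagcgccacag
Axin2: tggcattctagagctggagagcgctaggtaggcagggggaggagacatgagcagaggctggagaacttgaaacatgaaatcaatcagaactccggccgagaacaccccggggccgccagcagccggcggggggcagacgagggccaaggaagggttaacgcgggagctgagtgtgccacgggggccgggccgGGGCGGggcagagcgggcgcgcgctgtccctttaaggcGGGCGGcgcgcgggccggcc
Ror2: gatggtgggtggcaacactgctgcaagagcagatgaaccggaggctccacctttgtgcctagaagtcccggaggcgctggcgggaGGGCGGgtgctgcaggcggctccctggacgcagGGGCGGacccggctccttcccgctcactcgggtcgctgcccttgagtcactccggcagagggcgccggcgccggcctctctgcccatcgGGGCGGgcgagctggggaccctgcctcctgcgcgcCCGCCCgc
Fzd4 held 7 GC boxes in this window, Ror2 4, Axin2 2 and Sfrp5 1. Of the 38 genes, 25 had an entry, with 30 windows in all, and Apc, Axin1, Dkk3, Fzd2, Fzd3, Fzd8, Lrp5, Lrp6, Porcn, Sfrp1, Sfrp4, Wnt5a and Znrf3 had none. A GC box was present in 24 of the 30 windows (80.0%), beside 56.6% of the windows of all listed genes. The Tcf/Lef core motif, searched as CTTTGAT or CTTTGAA on both strands, was present in 2 of the 30 windows (6.67%), those of Wnt11 and Wnt5b, beside 5.29% of the windows of all listed genes. None of the 4 sequences shown holds these letters.

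Among the 6 listed Wnt ligands, only Wnt5a was called. Wnt5a, a ligand of beta-catenin independent signalling, had log2 CPM values of 4.04, 4.52, 4.21, 4.45 and 4.44 in HFD control mice and a range of 4.75 to 5.28 (median 5.03) in IMC-treated mice. Every treated mouse lay above every control mouse. This was a log2 fold change of 0.70 with a standard error of 0.11 (limma, Benjamini-Hochberg adjusted p = 0.000374), a 1.62-fold higher level. An antisense gene shares 358 bases of Wnt5a exons on the opposite strand, and the strand setting of the count is not stated. Wnt5b, a close relative, had a range of 0.55 to 1.52 in controls and 0.66 to 2.30 in treated mice, with overlap between the groups. Wnt5b had a log2 fold change of 0.48 (limma, Benjamini-Hochberg adjusted p = 0.176). Without IMC mouse 4 it was 0.66 (limma adjusted p = 0.0428), and without both IMC mice 2 and 6 it was 0.16. It had between 34 and 112 reads per mouse.

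The ligands Wnt2 and Wnt2b had lower means in IMC-treated mice without passing the test. Wnt2, a beta-catenin ligand with 22 to 141 reads per mouse, had log2 CPM values of 1.62, 1.37, 2.57, 1.64 and 0.74 in controls and a range of -0.03 to 1.44 (median 1.08) in treated mice. The groups overlapped, and both of the lowest values belonged to IMC mice 2 and 6. Its log2 fold change was -0.78 with a standard error of 0.34 (limma, Benjamini-Hochberg adjusted p = 0.0785). The limma adjusted p was 0.0299 without HFD mouse 5, 0.0488 without IMC mouse 4 and 0.0407 with array weights, and the log2 fold change was -0.39 without both IMC mice 2 and 6. Wnt2b, known from mesothelial and mesenchymal layers, ranged from 4.38 to 5.11 in controls and from 3.06 to 4.84 in treated mice (log2 fold change -0.58, standard error 0.31, limma, Benjamini-Hochberg adjusted p = 0.153). Its lowest levels, 3.28 and 3.06, were in IMC mice 4 and 6, and without IMC mouse 6 the log2 fold change was -0.36. The same 2 mice had the lowest summed level of the 8 listed mesothelial markers of 12 (Msln, Krt8, Krt18 and Muc16 not listed), 137 and 155 CPM, against 295 to 348 CPM in the other treated mice and 297 to 411 CPM in controls. Of these markers 2 (25%) were called lower, near the 21.0% of all genes, and 0 higher. The part of these markers in the Wnt2b values was not tested.

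Wnt9a and Wnt11 overlapped between the groups and were not called. Wnt9a ranged from 2.58 to 2.91 in controls and from 1.93 to 2.92 in treated mice, with a log2 fold change of -0.16 that was -0.02 without IMC mouse 4. Wnt11 ranged from 2.30 to 3.01 and from 2.18 to 3.07, with a log2 fold change of -0.16, or -0.06 without both IMC mice 2 and 6. The summed CPM per kb of the 6 ligands was 14.9 ± 1.99 (SD, n = 5) in controls and 14.2 ± 2.59 (SD, n = 6) in treated mice. The makeup of that sum differed more than its size. Wnt5a made up 17.8% ± 3.99 of it in controls (13.1% to 21.8%) and 30.2% ± 6.23 in treated mice (23.9% to 40.3%), with no overlap. Wnt2b made up 42.3% ± 3.49 and 31.5% ± 10.5, with overlap between the groups. The agonist Rspo1, which binds Lgr receptors and keeps Frizzled receptors at the surface, ranged from 4.91 to 5.33 in controls and from 3.94 to 5.48 in treated mice, with a log2 fold change of -0.14 and no call. Its lowest value was in IMC mouse 4, and without that mouse the log2 fold change was 0.05, and without both IMC mice 2 and 6 it was -0.37.

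Among the secreted antagonists, Sfrp5 and Sfrp1 rose and the remaining 4 were not called. Sfrp5, a Wnt-binding protein known as a product of adipocytes in obesity, had the largest change of the 38 genes. Its log2 CPM values were 6.03, 7.02, 6.65, 6.67 and 7.14 in HFD control mice and 7.74 to 8.31 (median 7.92) in IMC-treated mice. All treated mice lay above all controls, with a gap of 0.60 between the groups. On the log2 scale the change was 1.26 with a standard error of 0.16 (limma, Benjamini-Hochberg adjusted p = 0.000108), a 2.40-fold higher level, and leaving out single mice gave 1.10 to 1.37. The adipocyte markers moved in the same direction. Sfrp1, a relative that also binds Wnt ligands, had values of 5.73, 5.27, 4.92, 5.51 and 5.42 in controls and a range of 5.56 to 6.84 (median 5.74) in treated mice. The groups overlapped, and IMC mice 6 and 2 were the highest at 6.84 and 6.39. Sfrp1 had a log2 fold change of 0.61 with a standard error of 0.22 (limma, Benjamini-Hochberg adjusted p = 0.0390). The call was lost without HFD mouse 2, 3, 4 or 5 or without IMC mouse 2 or 6, with a limma adjusted p from 0.0516 to 0.104. With eBayes without trend the limma adjusted p was 0.0565, and without both IMC mice 2 and 6 the log2 fold change was 0.30 (limma adjusted p = 0.0993).

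Sfrp4, the third listed Sfrp gene, ranged from 3.86 to 4.68 in controls and from 3.47 to 4.99 in treated mice, with a log2 fold change of -0.10. The summed CPM per kb of the 3 Sfrp genes was 70.7 ± 14.9 (SD, n = 5) in controls and 152 ± 17.4 (SD, n = 6) in treated mice, with ranges of 50.0 to 88.5 and 141 to 186. Sfrp5 made up 79.2% ± 6.21 of it in controls and 86.9% ± 3.96 in treated mice, so most Sfrp transcript per length was Sfrp5 in both groups. Dkk2, a ligand of Lrp5 and Lrp6 that blocks them, was present at only 13 to 41 reads per mouse and ranged from -0.54 to 0.05 in controls and from -0.75 to 0.74 in treated mice. Its log2 fold change was 0.47 (limma, Benjamini-Hochberg adjusted p = 0.154), and the adjusted p was 0.0182 without IMC mouse 3. Dkk3, a divergent Dkk family member, ranged from 4.06 to 4.62 and from 3.97 to 5.34 (log2 fold change 0.17), and without both IMC mice 2 and 6 its log2 fold change was -0.10. Wif1, which binds Wnt ligands, had 21 to 45 reads per mouse, ranged from -0.06 to 0.89 and from 0.03 to 0.98, and had a log2 fold change of 0.22.

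Frizzled receptors were called in both directions, with 3 of 7 higher and 2 of 7 lower, beside 20% and 21.0% of all genes. This family is small, and its split was not tested. Fzd4, a receptor for Wnt ligands and for norrin, had the smallest p of the 38 genes. Its values were 6.74, 7.21, 6.75, 7.01 and 7.10 in HFD control mice and 7.72 to 7.90 (median 7.79) in IMC-treated mice. The treated mice lay close together and above every control. On the log2 scale the change was 0.84 with a standard error of 0.08 (limma, Benjamini-Hochberg adjusted p = 3.22e-05), a 1.78-fold higher level. Fzd8 had values of 2.54, 2.68, 2.56, 2.52 and 2.59 in controls and a range of 2.80 to 3.06 (median 2.92) in treated mice, also with no overlap. Fzd8 had a log2 fold change of 0.35 with a standard error of 0.07 (limma, Benjamini-Hochberg adjusted p = 0.00243). Fzd3, a receptor best known from axon guidance and planar polarity, had values of 2.51, 2.81, 2.31, 2.29 and 2.43 and a range of 2.64 to 3.32 (median 3.09). Its groups overlapped through 1 control and 1 treated mouse. Fzd3 changed by a log2 fold change of 0.59 with a standard error of 0.14 (limma, Benjamini-Hochberg adjusted p = 0.00414).

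Fzd1 and Fzd7, closely related receptors, fell. Fzd1 had values of 6.39, 6.33, 6.23, 6.16 and 6.01 in controls and a range of 5.58 to 6.07 (median 5.85) in treated mice. Only the lowest control and the highest treated mouse overlapped. Fzd1 had a log2 fold change of -0.38 with a standard error of 0.09 (limma, Benjamini-Hochberg adjusted p = 0.00373). Fzd7 had values of 5.94, 5.69, 6.25, 5.95 and 5.89 in controls and a range of 5.41 to 5.87 (median 5.57), with overlap. Its log2 fold change was -0.34 with a standard error of 0.10 (limma, Benjamini-Hochberg adjusted p = 0.0161), and without both IMC mice 2 and 6 it was -0.29 (adjusted p = 0.0652). Fzd2 and Fzd5 were not called, with log2 fold changes of -0.16 and 0.13. Fzd2 ranged from 3.41 to 3.71 and from 3.10 to 3.52, and Fzd5 from 4.48 to 4.74 and from 4.29 to 4.82, where the lowest value was in IMC mouse 6. Without that mouse the Fzd5 difference passed the test at a log2 fold change of 0.21 (limma, Benjamini-Hochberg adjusted p = 0.0182). Progenitor and fibroblast markers were lower and adipocyte markers higher in the same mice.

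Per exon length, the Frizzled transcripts changed in makeup. Fzd4 made up 32.1% ± 4.38 (SD, n = 5) of the summed Frizzled CPM per kb in controls and 50.2% ± 2.90 (SD, n = 6) in treated mice, with ranges of 27.1% to 36.2% and 45.9% to 54.1%. Fzd1 went from 30.7% ± 2.76 to 20.8% ± 1.81 and Fzd7 from 23.5% ± 3.52 to 16.3% ± 1.53. In controls Fzd4 and Fzd1 lay within their spread of each other, whereas in treated mice Fzd4 alone held the top place. The sum over the 7 receptors was 58.3 ± 1.76 CPM per kb in controls and 66.1 ± 3.09 CPM per kb in treated mice, with ranges of 56.6 to 61.0 and 62.4 to 69.7. These shares are descriptions and were not tested.

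**Figure D3:**
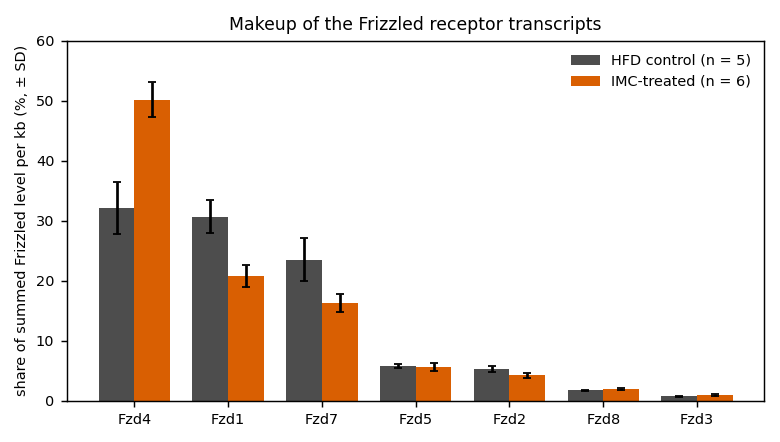
Share of each Frizzled gene in the summed Frizzled level per kb of exon (%, bars are means and error bars SD) in 5 HFD control and 6 IMC-treated mice. Fzd4 goes from 32.1% to 50.2%, while Fzd1 and Fzd7 take smaller shares in IMC-treated mice.

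The coreceptors Lrp5 and Lrp6, which pair with Frizzled receptors in beta-catenin signalling, were both higher. Lrp5 had log2 CPM values of 5.86, 5.86, 5.76, 5.79 and 5.97 in HFD control mice and a range of 6.07 to 6.49 (median 6.22) in IMC-treated mice, with no overlap. Lrp5 had a log2 fold change of 0.43 with a standard error of 0.08 (limma, Benjamini-Hochberg adjusted p = 0.000800). Lrp6 had values of 7.44, 7.51, 7.36, 7.34 and 7.27 and a range of 7.50 to 7.64 (median 7.55). The highest control mouse reached just into the treated range. The change of Lrp6 was smaller, at 0.17 with a standard error of 0.05 (limma, Benjamini-Hochberg adjusted p = 0.0117).

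Ror2, a receptor of Wnt5a, had the largest fall among the called genes. Its values were 1.94, 1.89, 1.89, 1.84 and 1.91 in HFD control mice and 0.93 to 1.75 (median 1.29) in IMC-treated mice. No treated mouse reached the lowest control, and the treated group was far more spread. The log2 fold change was -0.60 with a standard error of 0.14 (limma, Benjamini-Hochberg adjusted p = 0.00407), from 43 to 88 reads per mouse. Thus the ligand Wnt5a rose while Ror2, among its receptors, fell, and Ror1 and Ryk were not called. Ror1, the other member of that receptor pair, ranged from 2.78 to 2.98 and from 2.10 to 2.97 and was not called, at a log2 fold change of -0.34 (limma, Benjamini-Hochberg adjusted p = 0.0982). The limma adjusted p of Ror1 was 0.0439 without IMC mouse 4 and 0.0324 without IMC mouse 5, and its log2 fold change was -0.18 without both IMC mice 2 and 6. Ryk, a Wnt receptor with an inactive kinase domain, ranged from 6.15 to 6.29 and from 6.21 to 6.34, with a log2 fold change of 0.03.

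Neither of the genes for ligand processing was called. Porcn, which attaches the lipid to Wnt proteins, had a log2 fold change of 0.04 and ranges of 3.17 to 3.54 and 3.12 to 3.63. Wls, which carries the ligands to the cell surface, had a log2 fold change of 0.02 and ranges of 7.18 to 7.40 and 7.19 to 7.45. Znrf3, a ubiquitin ligase that removes Frizzled receptors from the surface and a known target of beta-catenin, was called higher. Its values were 2.87, 2.93, 3.08, 3.23 and 3.34 in controls and 3.29 to 3.99 (median 3.54) in treated mice. Overlap was limited to the edge of the groups, and the highest treated values were in IMC mice 2 and 6. The log2 fold change was 0.50 with a standard error of 0.13 (limma, Benjamini-Hochberg adjusted p = 0.00888), and without both of those mice it was 0.34 (adjusted p = 0.0333).

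Axin2, a scaffold of the destruction complex and the most widely used target gene of beta-catenin, had the largest change among the cytoplasmic genes. Its log2 CPM values were 3.04, 3.38, 3.43, 3.53 and 3.39 in HFD control mice and 3.66 to 4.57 (median 3.91) in IMC-treated mice. The groups did not overlap, and the 2 highest values, 4.57 and 4.46, were those of IMC mice 6 and 2. The log2 fold change was 0.67 with a standard error of 0.17 (limma, Benjamini-Hochberg adjusted p = 0.00590), and without both of those mice it was 0.43 (adjusted p = 0.00887). An antisense gene shares 209 bases of Axin2 exons on the opposite strand. Axin1, the scaffold that is not a feedback target, went the other way. Its values were 5.74, 5.60, 5.70, 5.74 and 5.63 in controls and 5.44 to 5.61 (median 5.53) in treated mice, with overlap of 1 control and 1 treated mouse. The log2 fold change was -0.16 with a standard error of 0.05 (limma, Benjamini-Hochberg adjusted p = 0.0166).

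The kinase Gsk3b and the scaffold Apc, which also belong to the destruction complex, were slightly higher. Gsk3b had values of 6.90, 6.89, 6.77, 6.82 and 6.89 in controls and a range of 6.99 to 7.17 (median 7.04) in treated mice, with no overlap and a log2 fold change of 0.21 (standard error 0.05, limma, Benjamini-Hochberg adjusted p = 0.00250). Apc had values of 6.46, 6.45, 6.38, 6.51 and 6.35 in controls and a range of 6.49 to 6.70 (median 6.59), with overlap and a log2 fold change of 0.17 (standard error 0.05, limma, Benjamini-Hochberg adjusted p = 0.0134). The 3 Dvl genes carry the signal from Frizzled to the destruction complex. Dvl1 had values of 6.19, 6.18, 6.06, 6.03 and 6.36 in controls and a range of 6.28 to 6.67 (median 6.33), with a log2 fold change of 0.22 and a standard error of 0.08 (limma, Benjamini-Hochberg adjusted p = 0.0361). Its groups overlapped through HFD mouse 5, the highest control. The call was lost without HFD mouse 1, 2, 3 or 4 or without IMC mouse 2, 5 or 6 (limma adjusted p from 0.0504 to 0.0931), with eBayes without trend (0.0527), with total scaling (0.0713) and without both IMC mice 2 and 6 (limma adjusted p = 0.0993, log2 fold change 0.15).

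Dvl3 had values of 4.49, 4.49, 4.52, 4.30 and 4.38 in controls and a range of 4.53 to 4.71 (median 4.57) in treated mice. The groups were separated by less than 0.01, and the log2 fold change was 0.17 with a standard error of 0.06 (limma, Benjamini-Hochberg adjusted p = 0.0389). The call was lost without HFD mouse 4 or 5 or IMC mouse 4, 5 or 6, with a limma adjusted p from 0.0558 to 0.102, with median centring at 0.0524, with total scaling at 0.0806, and without both IMC mice 2 and 6 at 0.0626. Dvl2 ranged from 4.08 to 4.52 and from 4.01 to 4.34 and was not called (log2 fold change -0.18), although the adjusted p by limma was 0.0395 without HFD mouse 5. Dvl2 shares 1151 exon bases with Acadvl on the opposite strand. Ctnnb1, the transcript of beta-catenin itself, had values of 9.18, 9.13, 9.08, 8.99 and 8.91 in controls and 9.03 to 9.11 (median 9.08) in treated mice. All treated mice lay inside the control range, and the log2 fold change was 0.01 with a standard error of 0.05.

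Neither listed Tcf factor, the DNA-binding partners of beta-catenin, was called. Tcf7l2, the most studied of them in metabolism, had values of 4.35, 4.32, 4.24, 4.35 and 4.34 in HFD control mice and 4.36 to 4.66 (median 4.45) in IMC-treated mice. Its groups did not overlap, by a gap of less than 0.01. The log2 fold change was 0.16 with a standard error of 0.06 (limma, Benjamini-Hochberg adjusted p = 0.0529), and the adjusted p was 0.0340 without IMC mouse 5, 0.0466 with eBayes without trend, 0.0496 over genes with a mean of at least 1 log2 CPM and 0.0438 with array weights. Tcf7l1, which mostly acts as a repressor, ranged from 4.43 to 4.65 and from 3.92 to 4.59, with a log2 fold change of -0.19, or -0.10 without IMC mouse 4.

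**Figure D4:**
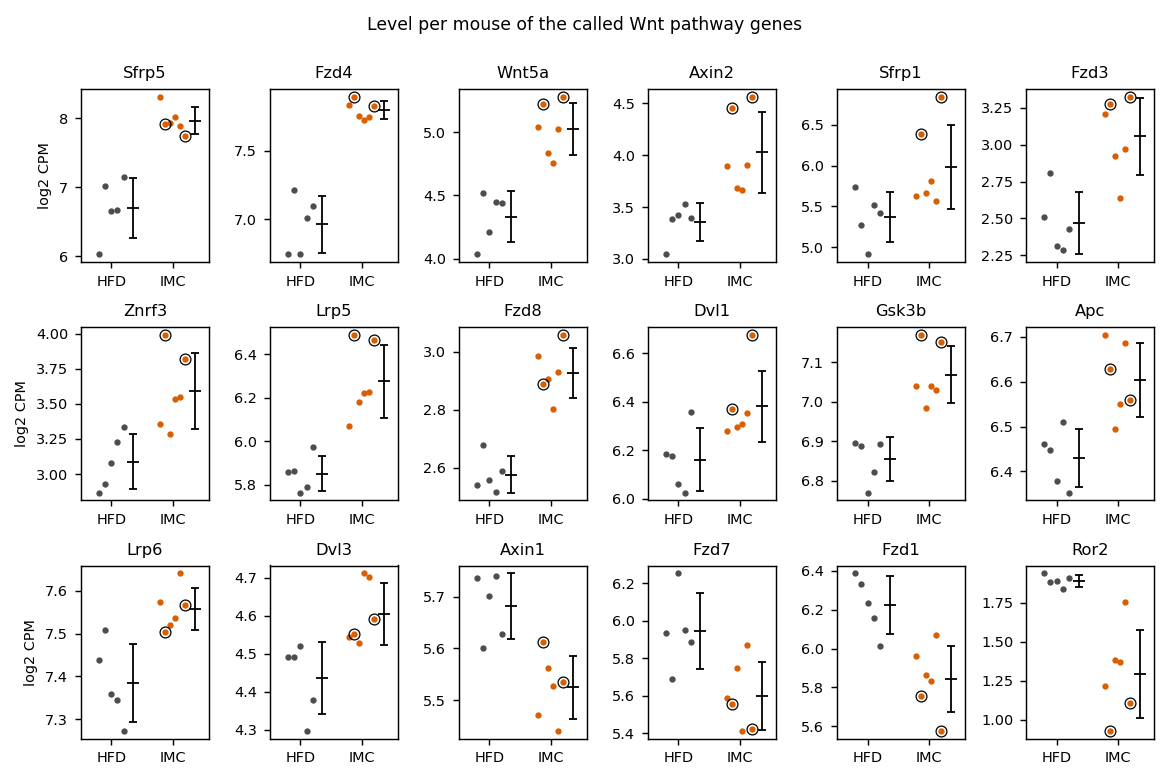
Level (log2 CPM) of the 18 called Wnt pathway genes in each of 5 HFD control and 6 IMC-treated mice, with the mean and SD at the side and IMC mice 2 and 6 ringed. Axes start above 0 and differ between genes. The ringed mice are the 2 highest treated values for Axin2, Sfrp1, Znrf3, Lrp5, Wnt5a, Fzd3, Gsk3b and Dvl1 and the 2 lowest for Ror2 and Fzd1.

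Other genes of the pathway were taken from 5 lists of 82 listed genes in all, 2 of which stand in more than 1 list. Of these, 32 (39.0%) were called, 20 higher and 12 lower, with a median log2 fold change of 0.01. The share called was near that of all genes, 40.9% (20% higher and 21.0% lower). The lists are small, and no list was tested. The list of receptor complex genes and extracellular modulators had 16 of 25 entries listed, with 7 (43.8%) higher, 2 (12.5%) lower and a median of 0.11. Its 3 named genes all rose. Tspan12, a tetraspanin that works with Fzd4, ranged from 6.39 to 6.77 in HFD control mice and from 7.31 to 7.72 in IMC-treated mice, without overlap, and had a log2 fold change of 0.89 (limma, Benjamini-Hochberg adjusted p = 2.67e-05). Lgr4, a receptor of R-spondins, ranged from 5.24 to 5.64 and from 5.96 to 6.34 (log2 fold change 0.63, limma, Benjamini-Hochberg adjusted p = 9.72e-05). Gpc4, a glypican of the cell surface, ranged from 4.78 to 5.19 and from 5.67 to 6.28 (log2 fold change 0.89, limma, Benjamini-Hochberg adjusted p = 0.000109).

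The destruction complex and cytoplasmic list had 26 of 27 entries listed, with 5 (19.2%) higher, 2 (7.69%) lower and a median of -0.03, so 19 were not called. Its named genes rose without overlap of the groups. Amer1, a membrane anchor for Apc, had a log2 fold change of 0.50, Nkd1, a Dvl-binding feedback inhibitor, of 0.73, and Ccdc88c, a Dvl-binding protein, of 0.76. The limma adjusted p (Benjamini-Hochberg) was 0.000293, 0.000380 and 0.000475 in that order. Among nuclear cofactors, all 19 entries were listed, with 3 (15.8%) higher, 4 (21.1%) lower and a median of -0.00130. Tbl1x, a subunit of corepressor and coactivator complexes, rose by 0.42 and Bcl9l, a beta-catenin coactivator, rose by 0.69, whereas the corepressor Tle4 fell by 0.30 on the log2 scale (limma, Benjamini-Hochberg adjusted p = 4.14e-05, 9.23e-05 and 0.00364). The planar cell polarity list had 10 of 12 entries listed, with 4 (40.0%) higher, 0 lower and a median of 0.17. Its share called was near the 40.9% of all genes, and the groups overlapped for Daam1 and Daam2. The formin-like Daam1 and Daam2 had log2 fold changes of 0.23 and 0.45, and Vangl1, a membrane protein of polarity complexes, of 0.37 (limma, Benjamini-Hochberg adjusted p = 0.00321, 0.0104 and 0.0144). Without both IMC mice 2 and 6, Vangl1 had a log2 fold change of 0.23 (limma adjusted p = 0.0465).

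The listed textbook beta-catenin targets other than the genes chosen by symbol did not move one way. Of 19 entries 13 were listed, while Sp5, Notum, Lgr5, Tnfrsf19, Ascl2 and Sox9 were not. Of the 13, 3 (23.1%) were higher and 4 (30.8%) lower, beside 20% and 21.0% of all genes. Their median was -0.13. Apcdd1, which also blocks Wnt signals at the membrane, ranged from 4.43 to 5.17 in HFD control mice and from 5.43 to 5.92 in IMC-treated mice, without overlap. Its log2 fold change was 0.96 with an adjusted p of 0.000129 (limma, Benjamini-Hochberg). Nkd1 was described above as a feedback inhibitor, with a range of 4.28 to 4.91 in controls and 5.13 to 5.59 in treated mice. Cd44, a hyaluronan receptor that leukocytes also carry, ranged from 8.78 to 9.39 and from 7.89 to 8.71, lower without overlap, with a log2 fold change of -0.83 (limma, Benjamini-Hochberg adjusted p = 0.000442). Macrophage markers were lower in the same mice, and their part in the Cd44 value was not tested. The remaining called targets also went both ways. Myc and Ccnd1 were lower without overlap, with log2 fold changes of -0.44 and -0.36. Id2 was lower at -0.30 and Wisp2 higher at 0.78, both with overlap. The limma adjusted p (Benjamini-Hochberg) was 0.000610, 0.00303, 0.0402 and 0.00134 in that order.

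**Figure D5:**
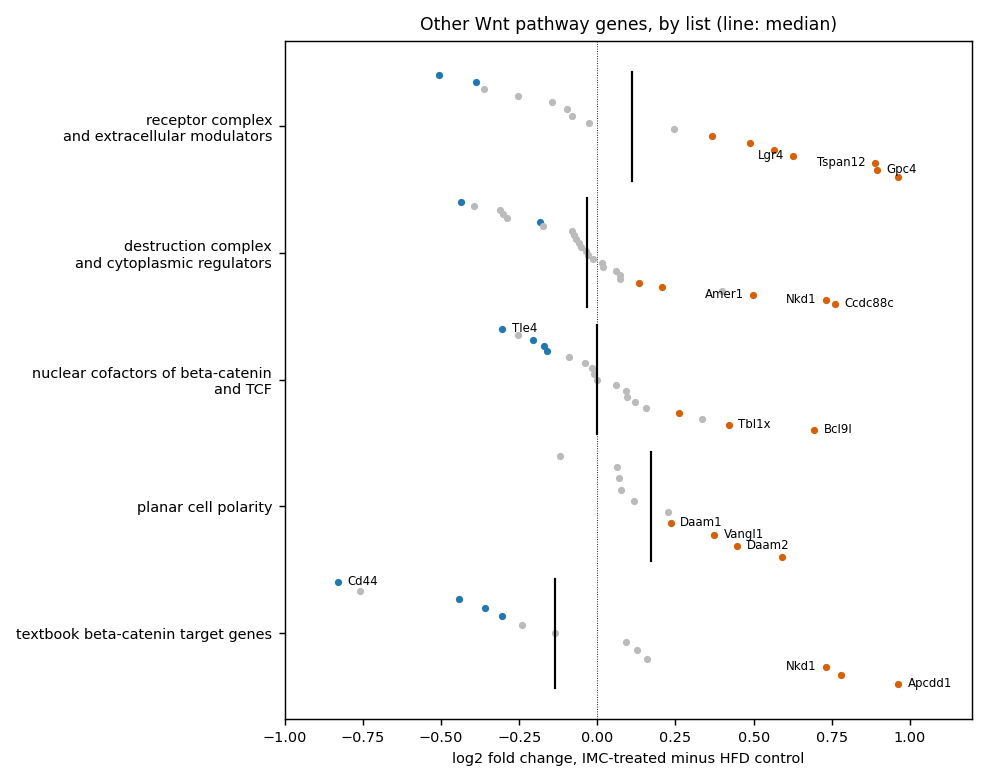
Log2 fold change (IMC-treated minus HFD control) of each gene in 5 lists of other Wnt pathway genes, with called genes in colour and a line at the median of each list. The medians run from -0.13 for the beta-catenin targets to 0.17 for planar cell polarity, and Apcdd1 at 0.96 lies farthest to the right.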

How the data were processed

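RNA was sequenced from 11 mice, and groups came from the sample labels. The authors trimmed reads with Trim Galore, aligned them to mm10 with STAR, removed low genes, scaled by upper quartile with edgeR, and deposited log2 CPM per gene and mouse. Columns of the deposited table with the authors' own comparison (fold change, mean level, likelihood ratio, p and false discovery rate) were not used. The values stand for whole reads (100% within 0.01 of a whole number). These gave only the depth, the reads per gene, and the total scaling and voom alternatives. Reads are not independent molecules. The kit was directional, and 8 of the 38 genes share exon bases with another gene.

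The groups were compared with limma 3.58.1 in R 4.3.3 (lmFit, eBayes with trend) on the deposited log2 CPM, with Benjamini-Hochberg adjustment over all 12787 genes. The labels do not say whether mice came from separate cages, and mouse numbers follow accession order and pair no mice. Exon lengths and overlaps came from GENCODE, promoters from RefSeq. The members, lists and the naming rule were chosen with earlier results of these data known. The rule was each called gene in full, and up to 3 genes with the smallest p from each list of other pathway genes. Outside that rule, the remaining called beta-catenin targets were also named. The fit was tested on simulated data. The lymphocyte marker list is not reported here. Alternatives were eBayes without trend, log2(CPM + 1), a mean of at least 1 log2 CPM, median centring, total scaling, array weights, voom, each mouse left out and, chosen after seeing the data, IMC mice 2 and 6 both left out. Tables and figures were made with Python 3.11.15, pandas 2.3.3 and matplotlib 3.10.9.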

Additional observations from a re-analysis of the deposited data

Results flagged for a closer look

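In 4 of the 76 groups of mice examined, 1 mouse lay far from the rest by Dixon's criterion, which about 1 in 20 groups would meet by chance. Dvl1 was 6.67 log2 CPM in IMC mouse 6, and the other treated mice lay between 6.28 and 6.37. Tcf7l2 was 4.24 in HFD mouse 3, and the other controls lay between 4.32 and 4.35. Fzd5 was 4.29 in IMC mouse 6, and the other treated mice lay between 4.70 and 4.82. Wnt9a was 1.93 in IMC mouse 4, and the other treated mice lay between 2.65 and 2.92.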

How the results depend on the processing

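With 19 alternatives tried, 14 of the 18 called genes kept their call in every one, and Sfrp1, Dvl1, Dvl3 and Fzd7 lost it in at least 1. Of the 20 genes not called, 7 passed the test in at least 1 alternative. The calls of the 14 genes kept their direction, and counts of calls stayed within 1.5 times. Wif1 and Dkk2 fall below a mean of 1 log2 CPM and have no value there. Total scaling lowered each log2 fold change by 0.0321, lowered the share of higher genes among all calls from 48.8% to 40.3% and gave a log2 fold change of -0.00330 for Ryk, -0.0126 for Wls and -0.0188 for Ctnnb1, all opposite in sign to the reported value and none called. Array weights gave -0.00739 for Wls. Without both IMC mice 2 and 6, log2 fold changes were -0.101 for Dkk3, -0.0820 for Porcn, -0.000628 for Ctnnb1 and 0.198 for Sfrp4. Leaving out single mice gave -0.0178 to 0.108 for Porcn, -0.252 to 0.0541 for Rspo1, -0.00952 to 0.0484 for Wls, -0.0232 to 0.0421 for Ctnnb1 and -0.282 to 0.0319 for Sfrp4. The cause of these sign changes was not tested beyond the shift by scaling. No paired analysis was possible because the mouse numbers are accession order. Dkk2, Wif1, Wnt2, Wnt5b and the called gene Ror2 rest on few reads, 13 to 141 per mouse.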

Other observations

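Over all genes, IMC mice 2 and 6 held the 2 highest treated values more often (17.4%) than any of the other pairs of treated mice, of which IMC mice 1 and 6 came next at 10.3%. Among the Wnt pathway genes, IMC mice 1 and 5 came next, with 6 genes. The 2 lowest treated values were those of IMC mice 3 and 4 for 8 of the 38 genes (21.1%), beside 9.96% of all genes. No sample label sets a pair apart.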
